A study of Mus musculus with 9 samples.

Results

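The metalloproteinases and their tissue inhibitors described here were 10 genes, chosen by symbol from the 24321 genes listed with an FPKM value in each library of meningeal lymphatic endothelial cells (MLECs). They comprised the matrix metalloproteinases Mmp2, Mmp9, Mmp14 and Mmp15, the inhibitors Timp1, Timp2 and Timp3, and the related proteases Adamts1, Adam10 and Adam15. All 10 symbols were found. FPKM counts sequenced fragments per kilobase of transcript and scales them to the library's total, so that levels of different genes can be set side by side.

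Matrix metalloproteinases are zinc-dependent enzymes that cut collagens and other proteins of the extracellular matrix, and they are known for opening the matrix around sprouting blood and lymphatic vessels. ADAM proteases cut the outer parts off membrane proteins, and ADAMTS proteases are secreted enzymes that cut proteoglycans and other matrix proteins. Tissue inhibitors of metalloproteinases, the TIMPs, bind the active site of these enzymes, and each TIMP blocks a different range of them.

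Meninges were taken from male C57BL/6 mice labelled 10 weeks old, which had received PBS (control), GL261 glioma cells or B16 melanoma cells, both syngeneic to the strain. The labels place the injection in the cisterna magna, with collection about 3 weeks after GL261 and about 2 weeks after B16 cells. The methods instead give a subdural injection, with collection 2 to 3 weeks later, which covers the times of the labels. The description of the results gives a single time for all groups. By the labels the tumors also differed in time. Each group had 3 libraries, each made from 10 sorted cells of a pool of 6 mice, and GL261 and B16 libraries together are called tumor-associated. CD31, CD45 and LYVE-1 are the sort markers of the labels and methods, and PDPN is named in place of LYVE-1 in the description of the results.

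No read counts stand behind the FPKM used here, so the depth cannot be read from the files. The supplement of the study lists fewer aligned reads for each control library than for each tumor-associated one. Genes with an FPKM above 0 numbered 7303 to 8688 in control and 8736 to 10852 in tumor-associated libraries, without overlap, so that depth, detection and tumor status cannot be told apart. Tbp, which every cell transcribes, was at 0 in 2 control libraries, so a gene at 0 is only said to be listed at 0. Of 10 genes that every cell transcribes, limma called 3 higher in tumor-associated MLECs and 0 lower, where 2.9% and 1.02% of all genes tested were. These 3 were Tbp (3.44, limma, adjusted p = 0.010), Actb (0.74, adjusted p = 0.018) and Gapdh (1.21, adjusted p = 0.0067). All 8 lymphatic markers (among them Lyve1, Flt4 and Prox1) were above 0 in every library, with summed FPKM of 2716 to 3254 in control and 1116 to 2867 in tumor-associated libraries. The 10 markers of blood endothelium summed to 2350 to 3107 in control and 6202 to 9859 in tumor-associated libraries, where 9 of 10 were above 0. Limma called 8 of the 9 tested higher, where 2.9% of all genes tested were. The first control library stood apart, with the fewest genes above 0 and 7 of 8 mural cell markers above 0 (summed FPKM 1270, led by Tagln at 641 and Acta2 at 505), against 13.2 to 195 in the other 8 libraries. The 8 fibroblast markers summed to 16.5 to 49.0 in control and 0 to 3.85 in tumor-associated libraries. Macrophage markers summed to 112 to 283 in control and 15.0 to 700.3 in tumor-associated libraries, with Ptprc, the gene of CD45, at 0 in all of them. Markers of melanoma cells summed to at most 4.07, and those of glia to at most 45.6, led by S100b in the B16 libraries (25.3 to 37.0). S100b was at 0, 3.00 and 0 in GL261 libraries and was called higher in B16 against control (4.80, limma, adjusted p = 0.013). The part of other cells in the differences below was not tested. Values without the first control library leave out that library alone, and the blood endothelial and fibroblast sums differed without overlap between the groups. Values with the number of genes above 0 as a covariate are also given. That number cannot be told apart from tumor status, so they do not separate detection from it.

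Of the 10 genes, 8 had an entry in the RefSeq promoter sequences (GRCm38.p6), and each entry was found once, letter for letter, in mm9 (NCBIM37). The 250 bases before the start are shown for Timp1, Adamts1 and Adam15, the 3 genes that were higher in tumor-associated MLECs, to set side by side what lies upstream of genes that moved in the same direction. Each is written 5′ to 3′ on the gene's strand, and capitals mark matches, on either strand, to the GC box GGGCGG, the TATA box TATAAA or the ETS core CCGGAA. The windows are chrX:20447042-20447291 on the plus strand for Timp1, chr16:85803359-85803608 on the minus strand for Adamts1 and chr3:89153951-89154200 on the minus strand for Adam15.
Timp1: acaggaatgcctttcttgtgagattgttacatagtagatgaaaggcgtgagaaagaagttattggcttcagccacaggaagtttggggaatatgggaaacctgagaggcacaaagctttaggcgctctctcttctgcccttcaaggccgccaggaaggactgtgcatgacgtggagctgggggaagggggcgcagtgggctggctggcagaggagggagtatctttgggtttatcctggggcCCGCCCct
Adamts1: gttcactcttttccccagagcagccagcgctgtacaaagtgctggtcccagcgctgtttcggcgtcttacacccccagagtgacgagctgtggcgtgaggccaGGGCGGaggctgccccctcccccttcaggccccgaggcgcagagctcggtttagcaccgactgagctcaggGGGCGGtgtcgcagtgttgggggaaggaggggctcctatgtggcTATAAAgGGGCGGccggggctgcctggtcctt
Adam15: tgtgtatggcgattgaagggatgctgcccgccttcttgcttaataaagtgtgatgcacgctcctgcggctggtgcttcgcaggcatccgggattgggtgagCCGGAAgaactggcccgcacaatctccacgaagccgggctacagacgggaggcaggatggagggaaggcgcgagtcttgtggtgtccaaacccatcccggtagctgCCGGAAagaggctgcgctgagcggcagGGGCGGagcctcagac
A GC box lay in all 3 windows, and in all 8 of the 8 genes with an entry, against 42.6% of 21263 protein-coding promoters. Otherwise the 3 windows differed. A TATA box began 32 bases before the start of Adamts1, closely followed by a GC box, and lay in 11.6% of protein-coding promoters. The ETS core lay 149 and 43 bases before the start of Adam15 and was in 15.0% of protein-coding promoters. The AP-1 site TGANTCA, present in 6.13% of them, was not among the letters of any of the 8 windows, and the E-box CACGTG (6.63%) was only in that of Adam10. The GC content was 54.4% for Timp1, 65.6% for Adamts1 and 62.0% for Adam15, against a median of 55.6% over protein-coding promoters.

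In tumor-associated MLECs, Timp1 appeared where controls were listed at 0, Timp2 fell from one of the highest members to one of the lower ones, and the proteases Adamts1 and Adam15 were higher. Mmp9 was listed at 0 in all 9 libraries and was not tested. The other 9 genes reached an FPKM of 1 or more in 3 or more libraries, the filter for testing. With limma on log2(FPKM + 1), 3 of the 9 were higher at an adjusted p under 0.05, where 2.9% of the 9955 genes tested were, and 1 was lower, where 1.02% of genes were. The ranges of tumor-associated and control libraries did not overlap for 4 genes that were higher (Timp1, Adamts1, Adam15 and Mmp15), where 6.08% of genes were, and for 1 that was lower (Timp2), where 4.44% of genes were. Timp1 and Mmp15 were listed at 0 in every control library. They passed the filter through tumor-associated libraries alone and could only come out higher, so their direction is no evidence. The median difference was 1.84 over the 9 genes and 0.20 over all genes tested. The members were chosen with earlier results of these data known, so these counts and medians are no independent evidence about the set. Rescaling each library to the same sum moved the median of all genes to 0.05 and the split of all calls from 289 higher and 102 lower to 209 and 120, and quantile normalization gave 0.03, with 238 and 145, while the same 4 of the 9 genes were called under both. Timp1, Mmp2 and Adam15 are in the study's own list of changed genes, which was chosen on these libraries and is no independent evidence of their direction.

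**Figure D1:**
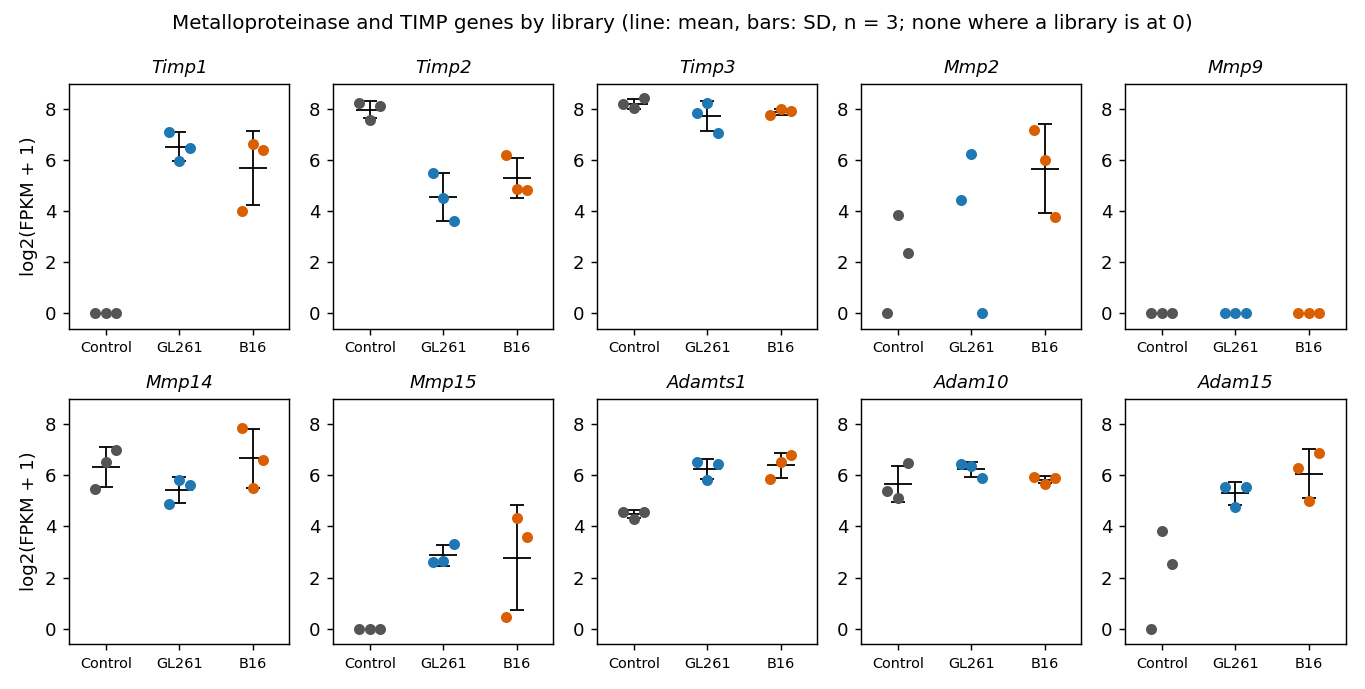
Each point is the log2(FPKM + 1) of 1 library (vertical axis) for the 10 genes in control, GL261 and B16 MLECs, with mean and SD of 3 libraries where none was at 0. Timp1 was at 0 in all 3 control libraries and above it in all 6 tumor-associated ones, Timp2 lay lower in all 6, and Mmp9 was at 0 throughout.

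Timp1 encodes a soluble inhibitor of most secreted matrix metalloproteinases that blocks the membrane-bound Mmp14 product poorly. The gene lies on the X chromosome (mm9, X:20447292-20451861, plus strand), inside the gene Syn1 on the other strand with 0 exonic bases shared, and Syn1 was listed at 0 in every library. Its FPKM was 0, 0 and 0 in control, 137, 61.7 and 89.3 in GL261, and 15.1, 99.6 and 84.4 in B16 libraries. The groups did not overlap, and the first B16 library was the lowest of the 6 by a wide gap. The difference of log2(FPKM + 1) was 6.11 (SE 0.67, limma, adjusted p = 2.75e-04), the 18th highest of 9955, and it rests on the pseudocount, being 9.40 with a pseudocount of 0.1. No fold is given against controls at 0. Of 18 alternatives, the call was lost only with the number of genes above 0 as a covariate (adjusted p = 0.078). Flt1 (0.0997 to 0.856 FPKM in control, 49.0 to 156 in tumor-associated libraries) and Ly6c1 (at 0 in control, 393 to 4375) are markers of blood endothelium. Both moved in the same direction as Timp1, Adamts1 and Adam15. Of the 9 blood endothelial markers tested, 8 were higher and 1, Cldn5, was lower (-0.63, limma, adjusted p = 0.211, and -1.01 in GL261, adjusted p = 0.021). Plvap was already at 686 to 1390 FPKM in control libraries and rose by 1.29. The part of these markers in the differences of Timp1, Adamts1 and Adam15 was not tested. In libraries of pooled cells, fewer cells of a type and less RNA per cell cannot be told apart, here and below.

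Timp2 encodes an inhibitor that, bound to the Mmp14 product, also helps to activate the precursor of Mmp2. It lies at 11:118162383-118217054 on the minus strand and holds the gene BC100451 with 0 exonic bases shared, whose FPKM reached at most 0.754. Its FPKM was 300.2, 192 and 274 in control, 44.5, 21.7 and 11.4 in GL261, and 73.5, 28.0 and 27.8 in B16 libraries. The lowest control library lay far above the highest tumor-associated one. The mean was 255 ± 56.7 in control (SD, n = 3) and 34.5 ± 21.9 in tumor-associated MLECs (SD, n = 6). The difference was -3.05 on the log2 scale (SE 0.51, limma, adjusted p = 0.00510), the 92nd lowest of all genes tested. It was -2.92 without the first control library (adjusted p = 0.027) and was not called with genes above 0 as a covariate (-2.58, adjusted p = 0.270). The fibroblast marker Dcn, at 15.7 to 44.9 FPKM in control and at most 0.146 in tumor-associated libraries, fell as well, while Lum, Pdgfra and Fap were at 0 and Col1a1 at 0.135 or less in the control libraries too. Postn, at 15.1, was above 0.284 in the first control library alone. Of the 7 lymphatic markers tested, 6 were lower and 1 was higher. Limma called 3 of them lower, where 1.02% of all genes tested were. These were Flt4, Mmrn1 and Reln, with differences of -1.80, -2.56 and -2.35. Prox1 had the largest fall (-2.79, limma, adjusted p = 0.051), from 20.9 to 42.2 FPKM in control to 1.87 to 16.5 in tumor-associated libraries, but missed the threshold. Pdpn was not called either (-1.48, adjusted p = 0.235). Lyve1 was not called (-0.36, adjusted p = 0.629), and Pecam1 was higher (0.67, adjusted p = 0.222). The part of the fibroblast and lymphatic markers in the Timp2 difference was not tested.

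Timp3 encodes the inhibitor that stays bound to the matrix and also blocks ADAM and ADAMTS proteases. It lies at 10:85763117-85812251 on the plus strand, inside Syn3 on the other strand, with which it shares 1733 exonic bases. Whether the counting used strand is not stated, and Syn3 reached an FPKM of at most 0.423. Timp3 was the highest of the 10 genes in 2 of 3 control, 3 of 3 GL261 and 2 of 3 B16 libraries. Its FPKM was 293, 261 and 342 in control, 230.4, 300.1 and 133 in GL261, and 219, 253 and 239 in B16 libraries. Control and GL261 libraries overlapped, and control and B16 libraries did not. The difference of -0.41 (95% interval -1.04 to 0.21, limma, adjusted p = 0.457) did not exceed the spread between libraries.

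Together the 3 inhibitors summed to 593, 453 and 617 FPKM in control, 411, 384 and 234 in GL261, and 308, 380 and 352 in B16 libraries, without overlap between control and tumor-associated libraries. Their shares of that sum also moved. Timp2 made up between 42.3% and 50.6% of it in control, but between 4.88% and 10.8% in GL261 and between 7.38% and 23.9% in B16 libraries. The share of Timp1 was 0% in control, between 16.1% and 38.1% in GL261, and between 4.90% and 26.2% in B16 libraries. Timp3 held the largest share in every tumor-associated library, from 56.0% to 78.3%. These shares are of FPKM within a library and therefore do not depend on how libraries are scaled against each other.

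**Figure D2:**
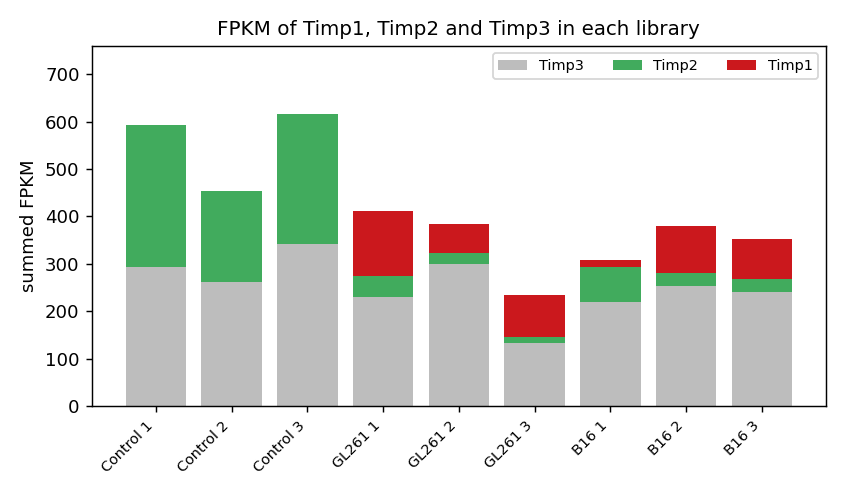
Stacked bars give the FPKM of Timp3, Timp2 and Timp1 in each of the 9 libraries (vertical axis, summed FPKM). In control libraries Timp2 filled 42.3% to 50.6% of the bar and Timp1 none, whereas in GL261 and B16 libraries Timp2 filled at most 23.9% and Timp1 between 4.90% and 38.1%.

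Among the matrix metalloproteinases 0 of 3 tested were called by limma in tumor-associated MLECs, and 1 of them, Mmp15, had an unadjusted p under 0.05 (0.0053), where 19% of all genes tested did. Mmp14, a membrane-bound collagenase that activates the Mmp2 precursor and can cut LYVE-1, lies at 14:55050441-55060095 on the plus strand. Its FPKM was 43.5, 90.8 and 127 in control, 28.1, 55.0 and 48.0 in GL261, and 231, 45.0 and 97.5 in B16 libraries. The 3 groups overlapped, with a tumor-associated against control difference of -0.28 (95% interval -1.58 to 1.01, limma, adjusted p = 0.847), which turned to 0.051 without the third control library.

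Mmp2, gelatinase A, cuts type IV collagen of basement membranes and lies at 8:95351227-95377316 on the plus strand. Its FPKM was 0, 13.4 and 4.11 in control, 20.8, 74.9 and 0 in GL261, and 146, 63.5 and 12.8 in B16 libraries. It was above every control library in 4 of 6 tumor-associated libraries and at 0 in one GL261 library. The difference of 2.55 (95% interval -0.37 to 5.47, limma, adjusted p = 0.331) did not pass. It ranged from 1.52 without the first control library (adjusted p = 0.618) to 3.47 without the third GL261 library (adjusted p = 0.079), and was 3.44 without the second control library. Mmp9, gelatinase B, at 2:164766280-164781350 on the plus strand, was at 0 in every library. The neutrophil markers, from cells known to carry Mmp9, summed to at most 9.78 FPKM.

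Mmp15, a second membrane-bound member, lies at 8:97876168-97898193 on the plus strand. Its FPKM was 0, 0 and 0 in control, 5.11, 5.29 and 9.04 in GL261, and 0.361, 19.0 and 10.9 in B16 libraries. Every tumor-associated library was above the controls, 1 of them barely. The difference of 2.82 (SE 0.84, limma, adjusted p = 0.086) missed the threshold and passed it without the first B16 library (3.30, adjusted p = 0.023) and with a pseudocount of 0.1 (5.76, adjusted p = 0.038).

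The 4 matrix metalloproteinases summed to between 43.5 and 131 FPKM in control, 54.0 and 135 in GL261, and 121 and 378 in B16 libraries. Mmp14 carried 87.2% to 100% of that sum in control and 35.3% to 84.1% in tumor-associated libraries. The sum of the inhibitors over that of the enzymes was 13.7, 4.35 and 4.71 in control, 7.62, 2.84 and 4.11 in GL261, and 0.815, 2.98 and 2.90 in B16 libraries. Every B16 library lay below every control library, and GL261 libraries overlapped with control. The ratio of Timp2 to Mmp14, the pair that acts on the Mmp2 precursor, was 6.91, 2.11 and 2.16 in control, 1.58, 0.394 and 0.238 in GL261, and 0.318, 0.623 and 0.285 in B16 libraries, without overlap between control and tumor-associated libraries. Ratios of RNA levels say nothing of protein or enzyme activity.

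Adamts1 encodes a secreted protease that cuts the proteoglycans versican and aggrecan and is known as an inhibitor of vessel growth. It lies at 16:85794072-85803358 on the minus strand. Its FPKM was 23.0, 18.8 and 22.8 in control, 90.3, 55.5 and 85.6 in GL261, and 56.8, 91.0 and 112 in B16 libraries. The groups did not overlap, and control libraries lay close together. The mean was 21.5 ± 2.35 in control (SD, n = 3) and 81.8 ± 21.8 in tumor-associated MLECs (SD, n = 6), with a difference of 1.84 (SE 0.38, limma, adjusted p = 0.018). It was 1.88 without the first control library (adjusted p = 0.037) and was not called with genes above 0 as a covariate (1.87, adjusted p = 0.297).

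Adam15, a membrane protease that also binds integrins, lies at 3:89142464-89153932 on the minus strand, where 1263 exonic bases are shared with a long noncoding RNA on the other strand. No FPKM is listed for that RNA. Whether the counting used strand is not stated, so reads from it cannot be told apart from those of Adam15. Its FPKM was 0, 13.2 and 4.74 in control, 46.2, 26.3 and 45.8 in GL261, and 78.1, 31.3 and 117 in B16 libraries. The lowest tumor-associated library stood above the highest control, and the library at 0 was the first control library. The difference was 3.56 (SE 0.77, limma, adjusted p = 0.023). Without the first control library it was 2.50 (adjusted p = 0.063) and without the third B16 library 3.32 (adjusted p = 0.055), and over 18 alternatives the adjusted p ranged from 0.0072 to 0.435. The call was also lost with a pseudocount of 0.1, with no filter on low values and with genes above 0 as a covariate.

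Adam10, which sheds Notch receptors, cadherins and the chemokine Cx3cl1 from the cell surface, lies at 9:70526804-70628036 on the plus strand. Its FPKM was 41.5, 33.9 and 88.1 in control, 85.7, 82.3 and 58.7 in GL261, and 60.0, 50.0 and 58.5 in B16 libraries. It was above 0 in all 9 libraries, and the groups overlapped. The difference of 0.37 (95% interval -0.51 to 1.24, limma, adjusted p = 0.672) did not exceed the spread between libraries.

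The order of the members changed with these differences. By mean FPKM, control MLECs held Timp3 (299 ± 40.9), Timp2 (255 ± 56.7), Mmp14 (87.0 ± 41.7), Adam10 (54.5 ± 29.3) and Adamts1 (21.5 ± 2.35, SD, n = 3 for each), ahead of Adam15 and Mmp2 with at most 13.4 and of Timp1, Mmp15 and Mmp9 at 0. The spreads of Timp3 and Timp2, and of Mmp14 and Adam10, overlapped. In tumor-associated MLECs Timp3 came first (229 ± 54.7), though its lowest library (133) lay below the highest of Mmp14 (231) and Timp1 (137). It was followed by Adamts1 (81.8 ± 21.8), Timp1 (81.1 ± 40.6), Adam10 (65.9 ± 14.5) and Adam15 (57.4 ± 34.2, SD, n = 6 for each), which did not differ from their neighbours beyond the spread. The place of Mmp14 rested on the first B16 library, with a mean of 84.1 ± 75.7 over the 6 libraries but 54.7 ± 25.9 without it, and by its median (51.5) it came after Adamts1 (87.9), Timp1 (86.8) and Adam10 (59.3), values added after the data were seen. Timp2 (34.5 ± 21.9) came behind Mmp2, which ran from 0 to 146, and Mmp15 (8.29 ± 6.40) was the last above 0.

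Each tumor was also set against control separately, and both comparisons share the 3 control libraries. In GL261 against control, 1 gene was called higher (2.58% of all genes tested) and 1 lower (0.904%). These were Timp1 (6.52, SE 0.77, limma, adjusted p = 0.00126) and Timp2 (-3.43, SE 0.57, adjusted p = 0.00884). In B16 against control, 2 genes were called higher (1.61%) and 1 lower (0.502%). These were Timp1 (5.69, SE 0.77, limma, adjusted p = 0.00310), Adam15 (3.95, SE 0.91, adjusted p = 0.0497) and Timp2 (-2.67, SE 0.57, adjusted p = 0.037). The call of Adam15 in B16 held in 3 of 18 alternatives, and leaving out any library but the second control library ended it (adjusted p from 0.073 to 0.191). Without the second control library Adam15 was called in GL261 as well (4.03, adjusted p = 0.031). The call of Timp2 in B16 held in 8 of 18 alternatives and was lost without control library 1 or 3 (adjusted p = 0.092 and 0.083), GL261 library 2 (0.060) or B16 library 2 or 3 (0.119 and 0.135). Without the first control library Timp1 was still called in B16 (5.69, adjusted p = 0.0068), and Timp1 and Timp2 were still called in GL261. With the number of genes above 0 as a covariate none of these calls passed. In a fit of B16 and control libraries alone, none of the calls in B16 passed (Timp1, limma, adjusted p = 0.067). Adamts1 differed from control by 1.77 in GL261 (adjusted p = 0.057) and 1.91 in B16 (adjusted p = 0.054). Rescaling moved the calls over all genes in GL261 from 257 higher and 90 lower to 173 and 110.

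**Figure D3:**
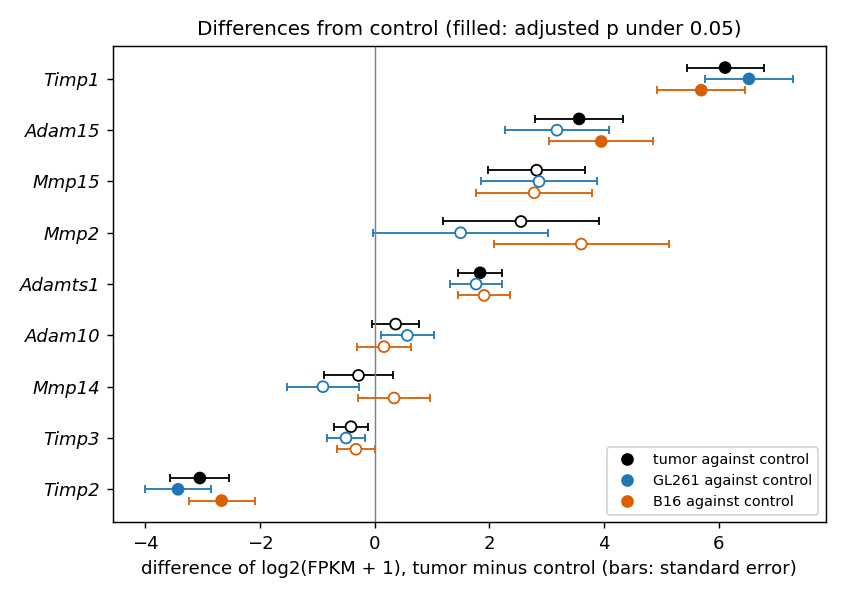
Differences of log2(FPKM + 1) from control with their standard errors (horizontal axis) for the 9 genes tested, in tumor-associated (black), GL261 (blue) and B16 (orange) MLECs, filled where the adjusted p was under 0.05. Timp1 (6.11, 6.52 and 5.69) and Timp2 (-3.05, -3.43 and -2.67) are filled in all 3 comparisons, Adam15 in tumor-associated and B16 MLECs, and Adamts1 in tumor-associated MLECs.

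GL261 and B16 MLECs were also compared with each other, which tests whether the differences from control differ between the tumors. No member was called, where 0.01% of all genes tested were, and 0 of 9 had an unadjusted p under 0.05, where 5.5% of genes did. The intervals were wide and do not show that the tumors act alike. GL261 minus B16 was 0.83 for Timp1 (95% interval -0.85 to 2.52), -0.76 for Timp2 (-2.02 to 0.50), -0.14 for Adamts1 (-1.13 to 0.85) and -0.77 for Adam15 (-2.76 to 1.22). The lowest unadjusted limma p was that of Mmp14 (0.071), at -1.24 (-2.60 to 0.12). Mmp2 gave -2.10 (-5.44 to 1.24), with -0.32 without the third GL261 library, -3.44 without the second and -1.34 without the first B16 library. The others were Mmp15 0.08 (-2.12 to 2.29), Timp3 -0.17 (-0.90 to 0.55) and Adam10 0.41 (-0.61 to 1.42).

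Around these genes, 95 others of the same families, their activators and partners, and proteins they cut were listed, of which 66 had an FPKM above 0 in some library and 46 passed the filter. In tumor-associated against control MLECs 6 of the 46 were higher, where 2.9% of all genes tested were, and 1 was lower, where 1.02% were, and 39 did not pass. The median difference of the 46 was 0.60, against 0.20 over all genes tested, and all 7 calls were kept without the first control library. These lists were also chosen with earlier results of these data known, so their counts and median are no independent evidence. In GL261 against control 4 were higher and 2 lower (2.58% and 0.904% of all genes tested), and in B16 against control 4 were higher and 1 lower (1.61% and 0.502%). Among the genes called in any comparison, Adamts4, Adamts9 and Cx3cl1 were at 0.283 FPKM or less in every control library. They passed the filter through tumor-associated libraries alone, so in tumor-associated against control MLECs they could only come out higher. Without the first control library Adamts9 and Col4a1 lost their calls in GL261 (adjusted p = 0.071 and 0.058) and Pcsk6 in B16 (0.058). Between the tumors limma called 0 of the 46, where 0.01% of all genes tested were called. At an unadjusted p under 0.05 there were 3 of the 46, where 5.5% of all genes tested were.

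The other matrix metalloproteinases were largely listed at 0, with 7 of 19 above 0 in any library and only Mmp11 tested, at 2.34 FPKM or less. Mmp12 and Mmp28, the next highest, were each above 0 in 1 GL261 library. Of 7 other ADAM proteases 4 were tested and limma called 0 in any comparison. In tumor-associated MLECs 2.9% of all genes tested were called higher and 1.02% lower. Only Adam9 had an unadjusted p under 0.05, in tumor-associated MLECs (19% of all genes tested did) and in GL261 MLECs (16.9%). Adam17, the main sheddase of tumor necrosis factor, ran from 16.3 to 23.9 FPKM in control and 1.17 to 15.5 in tumor-associated libraries, which did not overlap (difference -1.05, limma, adjusted p = 0.440). Adam9 and Adam12 came next, with differences of 2.11 and -1.33 (adjusted p = 0.216 and 0.454).

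Of 18 other ADAMTS proteases 7 were tested. Adamts4, an aggrecan-cutting enzyme, was at 0 in all control libraries, at 11.5, 9.17 and 4.14 in GL261 and at 9.64, 5.83 and 18.1 in B16 libraries. It was higher in tumor-associated MLECs (3.30, SE 0.69, limma, adjusted p = 0.018), as Adamts1 was. Adamts9, which cuts versican, was at 0, 0 and 0.142 FPKM in control, 10.0, 6.05 and 14.0 in GL261, and 2.01, 4.95 and 3.17 in B16 libraries, and was higher in GL261 (3.33, adjusted p = 0.034). Adamts5 and Adamts10 had the highest means of this list, with differences of 2.41 and 0.67 (adjusted p = 0.106 and 0.699).

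Of 8 other inhibitors 2 were tested, and limma called 0 in any comparison. In tumor-associated against control MLECs 0 had an unadjusted p under 0.05, where 19% of all genes tested did. In GL261 against control 1 did, where 16.9% of all genes tested did. Tfpi2, an inhibitor of plasmin that also blocks matrix metalloproteinases, was the highest, at 24.0 to 34.9 FPKM in control and 13.8 to 131 in tumor-associated libraries (difference 0.80, limma, adjusted p = 0.508). It was the one with an unadjusted p under 0.05 in GL261, at 96.6, 42.6 and 131 FPKM, each above every control library (1.49, limma, adjusted p = 0.262). Timp4 was above 0 in 2 B16 libraries, at 0.415 and 22.1. Reck, a membrane-anchored inhibitor, was above 0 in 1 control and 3 tumor-associated libraries, at 3.10 to 8.73.

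Of 21 activators, partners and clearance receptors 16 were tested, with 1 higher and 1 lower in tumor-associated MLECs (2.9% and 1.02% of all genes tested). Pcsk6, a proprotein convertase, fell, with 72.9, 109 and 102 FPKM in control, 3.26, 4.65 and 10.4 in GL261, and 11.9, 17.7 and 7.47 in B16 libraries (-3.38, SE 0.57, limma, adjusted p = 0.0053). Plaur, the urokinase receptor, was at 0, 76.2 and 17.1 in control, 179, 141 and 123 in GL261, and 400.4, 230.2 and 226 in B16 libraries. It rose by 4.17 (SE 0.98, adjusted p = 0.032), or by 2.43 without the first control library (adjusted p = 0.042), and is in the study's own list. Its ligand urokinase, Plau, fell in GL261, from 28.0, 41.7 and 57.1 in control to 6.18, 5.53 and 0.961 (-3.20, adjusted p = 0.031), with 27.8, 14.2 and 24.2 in B16 libraries (-0.90, adjusted p = 0.602), also below every control library. The difference between the tumors was not called (-2.30, adjusted p = 0.509). Bsg, known to induce matrix metalloproteinases in neighbouring cells, was the highest of the list, at 288 to 549 FPKM, with a difference of -0.04 (adjusted p = 0.952). Tspan14, a tetraspanin that guides Adam10 to the surface, gave -0.76 (adjusted p = 0.326).

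Of 22 substrates 16 were tested, and 4 were higher in tumor-associated MLECs, where 2.9% of all genes tested were. Both listed genes of type IV collagen, the basement membrane collagen that gelatinases cut, rose. Col4a1 was at 22.8, 75.8 and 69.0 FPKM in control, 178, 218 and 197 in GL261, and 191, 311 and 301 in B16 libraries (2.18, SE 0.40, limma, adjusted p = 0.0084). Col4a2 was at 19.2, 25.6 and 52.7 in control and at 137 to 219 in tumor-associated libraries (2.50, SE 0.37, adjusted p = 0.0020). Sparc, a matrix protein that binds collagen, was at 97.4, 491 and 612 in control and at 1468 to 3028 in tumor-associated libraries (2.71, SE 0.47, adjusted p = 0.0059). Cx3cl1, the chemokine that Adam10 sheds, was at 0, 0 and 0.283 in control, 10.4, 4.49 and 7.59 in GL261, and 23.6, 12.4 and 34.8 in B16 libraries (3.65, SE 0.75, adjusted p = 0.017). None of these 4 overlapped between control and tumor-associated libraries, where 6.08% of all genes tested were higher without overlap. The 4 were named because limma called them on these same libraries. All 4 were called without the first control library, where the difference of Sparc was 1.88 (adjusted p = 0.0043) and that of Col4a1 1.64 (adjusted p = 0.023). Lyve1, a sort marker that Mmp14 can cut, ranged from 974 to 1705 in control and 628 to 1895 in tumor-associated libraries (-0.36, adjusted p = 0.629).

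**Figure D4:**
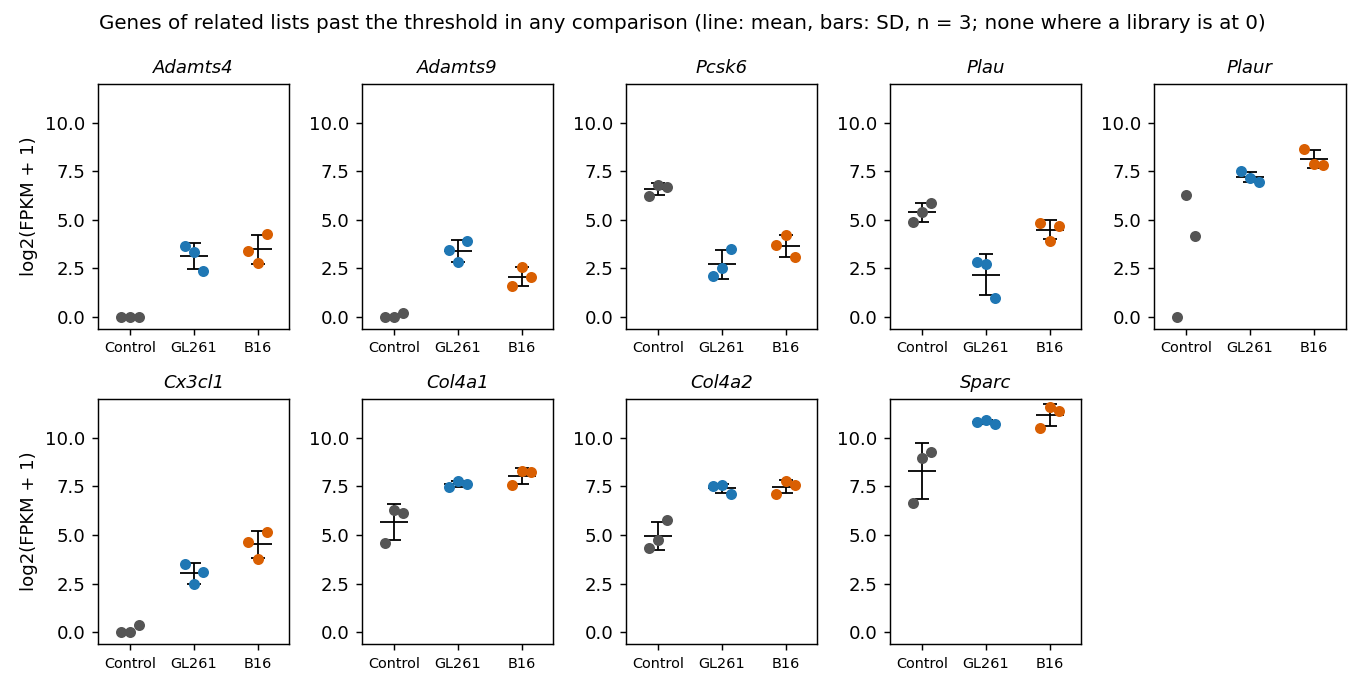
Each point is the log2(FPKM + 1) of 1 library (vertical axis) for the 9 genes of the related lists that passed the threshold in any comparison, with mean and SD of 3 libraries where none was at 0. Pcsk6 and Plau lay below every control library in all 6 tumor-associated libraries, and Adamts4, Adamts9, Plaur, Cx3cl1, Col4a1, Col4a2 and Sparc above every control library in all 6. Over all genes tested, 4.44% lay below and 6.08% above without overlap.

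The genes whose pattern over the 9 libraries lay nearest to that of each called member were found by the mean absolute difference of log2(FPKM + 1), after centring each gene on its own mean. For Timp1 they were Tgfbi (0.31), the blood endothelial marker Flt1 (0.42) and Fam212a (0.47). For Timp2 they were Fgf12 (0.34), Myo5b (0.39) and Tril (0.40). For Adamts1 they were Abl2 (0.22), Abcc1 (0.23) and Rpn1 (0.25), and for Adam15 they were Rai14 (0.43), Adgrg1 (0.45) and Lrrc32 (0.52).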

How the data were processed

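Gene expression was measured by RNA-seq in MLEC pools, 3 per group. The authors trimmed the paired reads, aligned them to mm9 with TopHat 2.0.12 and computed FPKM with Cufflinks 2.2.1, and deposited 1 FPKM per gene symbol and library, without counts. The gene annotation and the strand setting are not given in the sources used here. The FPKM were not scaled further between libraries. Amplification of 10 cells limits the precision of low values, and depth cannot be read from the files. The study's supplement lists fewer aligned reads for each control library than for each tumor-associated one. Groups came from the sample labels.

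The deposited FPKM were converted to log2(FPKM + 1) and fitted with limma 3.58.1 in R 4.3.3 (lmFit, eBayes with a trend, two-sided). The 9955 genes tested reached an FPKM of 1 or more in 3 or more libraries, p-values were adjusted over all of them by Benjamini-Hochberg, and the threshold was 0.05. Fold changes on this scale understate the change of low genes. Tumor-associated against control was a fit of 2 groups, and the single tumors were compared in 1 fit of 3 groups over all 9 libraries. On simulated data for tumor-associated against control, where 200 of 9955 genes had a log2 change of 3, the fit called 116 of them in the right direction and 4 unchanged genes. The changed genes were drawn from those with a mean log2(FPKM + 1) above 3, and values were drawn from normal distributions without listed zeros. These counts therefore do not cover lower genes or genes listed at 0 in a whole group. No 2 libraries held identical values (0 pairs).

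The members and gene lists were chosen with earlier results of these data known. All members are named, as is from each list every gene past the threshold in any comparison, the 3 with the highest mean FPKM and, for called members, the 3 tested genes nearest in pattern. Positions are those of GENCODE M1, and motifs were searched on both strands in the 250 bases before each start. Alternatives were a pseudocount of 0.1, no filter or a mean FPKM of at least 10, rescaling to 1000000 per library, quantile normalization, eBayes without a trend, a replicate block, the number of genes above 0 as a covariate, other groupings and leaving out each library. The study's ROC ranking of genes was not repeated, since it gives no p. Figures were drawn with Python 3.11.15 and matplotlib 3.10.9.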

Additional observations from a re-analysis of the deposited data

Results flagged for a closer look

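Timp1 in the first B16 library (15.1 FPKM, against 61.7 to 137 in the other 5 tumor-associated libraries) stood apart on the log2(FPKM + 1) scale. Its gap to the nearest library was 0.634 of the range of the 6 libraries, above Dixon's 95% critical value for 6 values. Chance flags about 1 in 20 such groups, and 9 genes were looked at. Among the tumor-associated libraries, this one also had the fewest genes above 0 (8736), the lowest blood endothelial sum (6202 FPKM) and the highest lymphatic sum (2867 FPKM). Its Timp2 (73.5) and Mmp14 (231) were the highest of the 6. What set this library apart was not tested.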

How the results depend on the processing

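Timp1, Timp2 and Adamts1 kept their calls in tumor-associated against control MLECs under 17 of 18 alternatives each. The number of genes above 0 as a covariate ended these calls and gave 13 calls over all genes against 391, 6 against 347 in GL261 and 17 against 210 in B16, and it cannot be told apart from tumor status. Over all genes, no filter on low values gave 254, 218 and 135 calls in tumor-associated, GL261 and B16 MLECs, and the fit of only the groups compared gave 197 in GL261 and 38 in B16. Leaving out each library gave 245 to 444, 105 to 363 and 69 to 274, and 1 to 4 between the tumors, where quantile normalization gave 2 and no trend 6 against 1. Counts moved by over 1.5 times without control 1 (259), GL261 1 (260), GL261 2 (245) or B16 3 (247) in tumor-associated MLECs, without GL261 1, 2 or 3 in GL261 (111, 105 and 172), and without B16 2 or 3 in B16 (85 and 69). Same-numbered libraries did not deviate together (r from -0.03 to 0.04 over 9 pairs, against -0.03 to 0.05 over 18 other pairs), so the numbers are not taken as pairs. With the replicate block 303, 230, 146 and 1 genes were called, and of the members Adam15 lost its call in B16 (adjusted p = 0.081). Values that turned sign were not called in any setting. With the covariate these were Mmp14 (0.49) and Adam10 (-0.034) in tumor-associated, Mmp2 in GL261 (-2.83) and Adam10 in B16 (-0.0031), and Mmp15 between the tumors (-0.32; -0.0025 when rescaled and -0.068 with quantile normalization). Leaving out each library, Mmp14 ranged from -0.71 to 0.051 in tumor-associated and -0.26 to 0.91 in B16, and Adam10 in B16 from -0.11 to 0.56. Between the tumors Mmp15 ranged from -1.08 to 0.86, Timp1 from -0.010 to 1.31, Timp3 from -0.43 to 0.15 and Adamts1 from -0.41 to 0.078. The cause of these changes was not tested.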
